A study of Mus musculus with 6 samples.

Results

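The genes described here are 10 mouse genes that copy, package and protect mitochondrial DNA or that set the shape, clearance and permeability of mitochondria: Tfam, Polg, Polg2, Ssbp1, Mfn1, Mfn2, Fis1, Pink1, Vdac1 and Ucp2. They were taken by name from a table of 38739 genes, and all 10 had a row and a value above 0 in every sample. The rows that could be placed on the genome lay on chromosomes 1 to 13, with 3 on X. Shares over all genes therefore do not cover the whole genome. The samples were peritoneal neutrophils of cGAS knockout mice, strain C57B/L6 in the labels (a C57BL/6J background in the methods), kept in RPMI with fetal bovine serum. One group of 3 received media alone (untreated) and the other group of 3 received 500 ng/mL of lipopolysaccharide (LPS) from E. coli, both for 2 h, with RNA then sequenced in bulk. The dose is that of the labels, and the methods of the study state a lower one. The methods describe the mice as male and of a single adult age in weeks, which the labels do not give, and the cells were lavaged from the peritoneum after thioglycolate injection. All 6 samples carried the cGAS deletion, so nothing here shows what cGAS itself does. It is not stated whether the 3 samples of a group came from separate mice, and the p-values measure only the spread between these samples.

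Mitochondria carry their own small circular genome. Its polymerase consists of a catalytic subunit (Polg) and an accessory subunit that keeps it on the template (Polg2), Ssbp1 coats the single strands during copying, and Tfam packs the DNA into nucleoids and starts its transcription. The organelles fuse through the outer membrane proteins Mfn1 and Mfn2 and divide with the help of Fis1, while the kinase Pink1 marks damaged ones for removal. Vdac1 is the main pore of the outer membrane and Ucp2 is a carrier of the inner membrane. Mitochondrial DNA that escapes into the cytosol is a ligand of cGAS, the DNA sensor that these mice lack. Mature neutrophils are known for few mitochondria and for drawing their energy mainly from glycolysis.

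The values behave as TPM (transcript abundances relative to the library total), although the deposit calls them normalized counts. The unit was inferred from the digits of the values in a single untreated sample. Each gene's value is taken as the mean of its annotated transcripts, divided by a factor of its sample, and is called scaled TPM here. Because of that averaging, levels are compared between samples and not between genes. Read depth cannot be recovered from them. Untreated samples had sums of 603599 to 713384, compared with 404675 to 465904 after LPS. The share held by protein-coding genes was 21.0% to 28.3% without LPS and 49.7% to 58.9% with it. In RNA of whole samples, fewer cells of a type and less RNA per cell cannot be told apart. The LPS label was checked on Nfkbia and Il1b, a pair of early LPS genes. Nfkbia lay between 251 and 834 in untreated samples and between 1326 and 1626 in LPS samples. Il1b lay between 178 and 478 in untreated samples and between 972 and 2353 in LPS samples. Cgas, the deleted gene, was listed above 0 in every sample, at 0.203, 0.307 and 0.180 untreated and 0.184, 0.0713 and 0.0286 with LPS, and no wild-type sample was analysed here to set these against. Among the marker genes, the 14 neutrophil genes present summed to at least 9738 in every sample, led by S100a8 and S100a9, whereas Elane was listed at 0 in all 6. Within the LPS group, sample 2 correlated over genes at 0.927 and 0.934 with the other samples, which correlated at 0.985 with each other. The untreated samples were much less alike, at 0.715, 0.749 and 0.729 with each other. Those values lay within the range between untreated and LPS samples, 0.711 to 0.782. Untreated sample 2 correlated best with LPS sample 2 (0.782). The spread of the untreated samples thus limits every comparison below.

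Several of these genes share a short sequence in their promoters. The RefSeq promoter table (windows of 250 bases before and 50 bases after a gene start, from build GRCm38.p6) held 14 windows for the 10 genes, and each was placed on GRCm39 by an exact, single match. The letters CCGGAAG, the core of binding by ETS factors, stood on either strand in 7 of the 10 genes, compared with 8.86% of all 32851 promoters of the same length. The 7 were Tfam, Polg, Polg2, Ssbp1, Mfn1, Fis1 and Vdac1. The letters GGGA, any 2 bases and TTCC, a form of the NF-kB motif, occurred in Polg2 and Vdac1 (1.47% of all promoters). The letters GCGCA, any base and GCGC, the motif of NRF1, occurred in Pink1 alone (4.6% of all promoters). All 3 were searched on both strands, and none was found in the windows of Mfn2 and Ucp2. A gene counted if any of its windows held the letters, whereas the shares over all promoters count single windows. Shown are the 130 bases before a RefSeq start of the 4 genes whose LPS samples all exceeded the untreated samples. They are on the coding strand of each gene, with CCGGAAG or its complement in capitals. In Polg2 and Vdac1 the NF-kB letters or their complement are in capitals as well. RefSeq starts differ from the GENCODE gene positions given below. Against those positions, the stretches of Tfam and Vdac1 lie inside the gene, and those of Polg2 and Mfn1 cross its start.
Tfam, chr10:71073875-71074004, minus strand: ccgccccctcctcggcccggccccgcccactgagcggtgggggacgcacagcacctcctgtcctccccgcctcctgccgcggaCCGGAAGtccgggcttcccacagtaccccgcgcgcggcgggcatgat
Polg2, chr11:106670364-106670493, minus strand: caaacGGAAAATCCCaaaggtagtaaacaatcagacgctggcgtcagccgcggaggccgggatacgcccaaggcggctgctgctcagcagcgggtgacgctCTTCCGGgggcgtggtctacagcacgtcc
Mfn1, chr3:32583501-32583630, plus strand: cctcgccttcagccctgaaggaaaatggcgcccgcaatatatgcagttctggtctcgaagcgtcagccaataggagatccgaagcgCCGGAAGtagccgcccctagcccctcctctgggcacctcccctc
Vdac1, chr11:52251548-52251677, plus strand: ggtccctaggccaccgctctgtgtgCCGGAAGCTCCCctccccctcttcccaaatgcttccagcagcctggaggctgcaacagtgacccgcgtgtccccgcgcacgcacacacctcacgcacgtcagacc
The ETS letters began 47 bases before the RefSeq start in Tfam and in Ssbp1, 44 in Mfn1 and 38 in Polg. They began 29 bases before it in Polg2 and 18 in Fis1, and a second window of Fis1 held them 19 bases after its start. In Vdac1 they began 105 bases before the start and overlapped the NF-kB letters that began 103 bases before it. Of the 7 genes with these letters, 3 (Polg, Ssbp1 and Fis1) had LPS and untreated samples that overlapped. A match describes letters in a window and is neither a bound site nor a cause.

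No gene of the 10 passed an adjusted p of 0.05 in either direction (limma with a trend on log2(scaled TPM + 1), Benjamini-Hochberg over 23049 genes), while 0.894% of all genes tested were called higher and 0.946% lower. None passed the limits of p under 0.01 with a log2 fold change beyond 2, against 1.69% of all genes called higher and 1.31% lower (4.89% and 0.747% of the 5894 protein-coding genes with a mean of at least 1). At an unadjusted p under 0.05, 2 genes were higher after LPS (Tfam and Vdac1) and 0 were lower, beside 10.3% and 6.66% of all genes and 20.5% and 7.48% of those protein-coding genes. The LPS samples all lay above the untreated samples in 4 genes (Tfam, Polg2, Mfn1 and Vdac1), as they did in 13.1% of all genes tested and in 24.6% of the protein-coding genes. They all lay below in 1 gene, Ucp2, as in 9.75% and 9.89% of those genes. Of the 10 log2 fold changes 7 were positive, with a median of 0.46. After each sample was rescaled to one protein-coding sum, 5 were positive and the median was 0.15. The median was 0.37 over the 5894 protein-coding genes, of which 64.9% were positive, and 0.01 over all 23049 genes. The shares of the 10 genes that were called or separate were read against these backgrounds, and no test over the set was made.

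**Figure D1:**
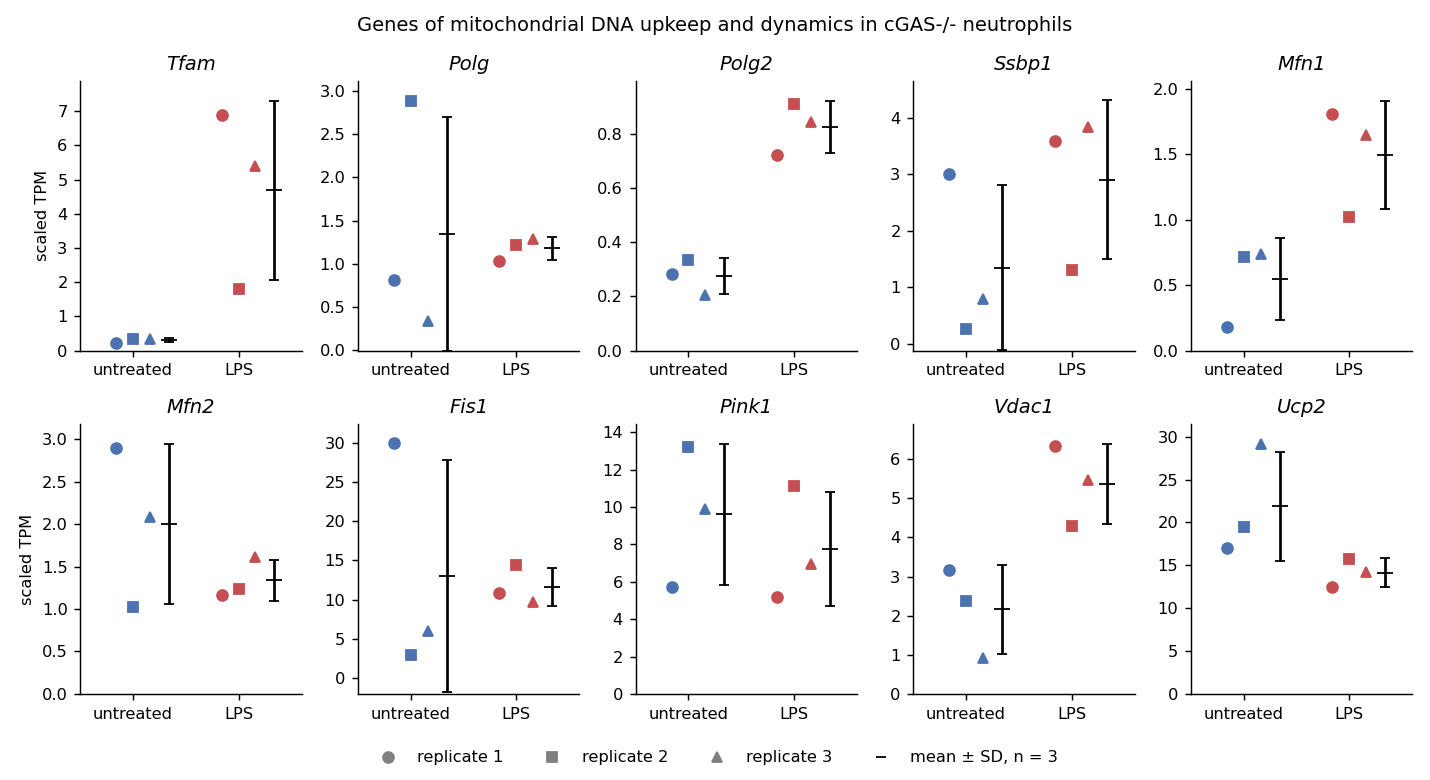
Scaled TPM (y axis, linear, a separate range for each gene) of the 10 genes in 3 untreated and 3 LPS samples of cGAS-/- neutrophils; each point is 1 sample, its shape is the replicate number, and the bars are the mean ± SD. LPS and untreated points do not overlap in Tfam, Polg2, Mfn1, Vdac1 and Ucp2.

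Tfam (ENSMUSG00000003923, chr10:71061287-71074110 on GRCm39, minus strand) had the largest difference. Its scaled TPM was 0.238, 0.355 and 0.355 in the untreated samples and 6.87, 1.80 and 5.39 in the LPS samples. Even LPS sample 2, the lowest of its group, exceeded each untreated sample. The means were 0.316 ± 0.0678 and 4.69 ± 2.61 (SD, n = 3), a ratio of 14.8. The fold change of log2(scaled TPM + 1), a scale that understates differences of low genes, was 1.98 (SE 0.46, 95% interval 0.86 to 3.10) with a limma p of 0.00485 and an adjusted p of 0.0948. Without LPS sample 2 it was 2.43 with a limma adjusted p of 0.0634, past the limits on p and fold. The adjusted p was 0.0427 where genes with a mean under 1 were left out of the limma fit, and it ranged from that value to 0.311 over 17 other settings.

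Within the LPS group, Tfam and the summed markers of B cells, which are resident in the peritoneum, were both lowest in sample 2. This was not particular to B cells. The T and NK cell markers summed to 12.5, 6.09 and 14.0 in LPS samples 1, 2 and 3. Sums for eosinophils and mast cells, mesothelial cells and fibroblasts, and erythroid cells and platelets were also lowest in LPS sample 2. The summed level of 6 B cell markers was 796, 262 and 726 in LPS samples 1, 2 and 3. In untreated samples 1, 2 and 3 it was 1087, 281 and 1028, while Tfam stayed low in each of them. The sum of 14 neutrophil markers was instead highest in sample 2 of each group. It was 18256, 54654 and 16088 in the LPS samples and 9968, 28522 and 9738 in the untreated samples. That sum came mostly from S100a8 and S100a9, and only 5 of the 14 genes had a positive log2 fold change after LPS. Csf3r, Cxcr2 and Cxcr4 had every LPS value below every untreated value. Cxcr2 was at 39.4, 120 and 100 untreated and at 7.10, 23.6 and 8.69 with LPS. Across the groups, the summed macrophage and monocyte markers (10 genes) also separated, with 169 to 224 in untreated samples and 293 to 424 in LPS samples, mostly through Cd68. Of these markers Mertk and Marco were at 0 in 1 untreated sample each. Ccr2 and Mrc1 went the other way, with every LPS value below every untreated value. Ccr2 was at 9.75, 4.48 and 2.57 untreated and at 1.68, 0.581 and 1.40 with LPS. Mrc1 was at 2.50, 1.17 and 2.11 untreated and at 1.01, 0.611 and 0.978 with LPS. The part of these cell types in the level of Tfam or of any other gene described here was not tested.

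The accessory subunit of the polymerase differed in the same direction, and the catalytic subunit did not separate. Polg2 (ENSMUSG00000020718, chr11:106658823-106670384, minus strand) was at 0.282, 0.336 and 0.204 in untreated samples and at 0.722, 0.910 and 0.844 in LPS samples. Each group was narrow and the lowest LPS value exceeded the highest untreated value. The means were 0.274 ± 0.0662 and 0.825 ± 0.0951 (SD, n = 3), a ratio of 3.01. Its log2 fold change was 0.52 (SE 0.21, interval -0.0011 to 1.038), with a limma p of 0.0504 and an adjusted p of 0.296. A limma fit in which the variance did not follow the level gave an adjusted p of 0.0331.

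Polg (ENSMUSG00000039176, chr7:79095974-79116110, minus strand) was at 0.814, 2.88 and 0.346 in untreated samples and at 1.03, 1.22 and 1.29 in LPS samples. The untreated samples spread 8.33-fold and enclosed all LPS values, which lay close together. On the log2 scale the difference was 0.04 (SE 0.46), with a limma adjusted p of 0.97, although the mean was lower after LPS (1.18 ± 0.133 against 1.35 ± 1.35, SD, n = 3). The sign of this difference depended on the scale and on single samples. The ratio of Polg2 to Polg within a sample was 0.347, 0.117 and 0.590 in untreated samples and 0.702, 0.744 and 0.657 in LPS samples. It was higher in every LPS sample, with an exact two-sided permutation p of 0.1, the smallest that 3 against 3 samples can give, and 0.15 after adjustment over 3 ratios. These ratios were chosen after the values were seen.

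Ssbp1 (ENSMUSG00000029911, chr6:40448286-40524298, plus strand), the single-strand binding protein of the replication fork, was at 3.00, 0.249 and 0.783 in untreated samples and at 3.59, 1.29 and 3.84 in LPS samples. Sample 2 was the lowest of each group, and untreated sample 1 lay among the LPS values. Its log2 fold change was 0.84 (SE 0.56, interval -0.53 to 2.21) with a limma adjusted p of 0.518. Without untreated sample 1 it was 1.31 (limma adjusted p = 0.227) and without LPS sample 2 it was 1.18 (limma adjusted p = 0.458), and the groups were then separate. Without untreated sample 2 it was 0.47. The ratio of Tfam to Ssbp1 was 0.0792, 1.43 and 0.454 in untreated samples and 1.92, 1.39 and 1.40 in LPS samples, so the groups overlapped (exact two-sided permutation p = 0.3).

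**Figure D2:**
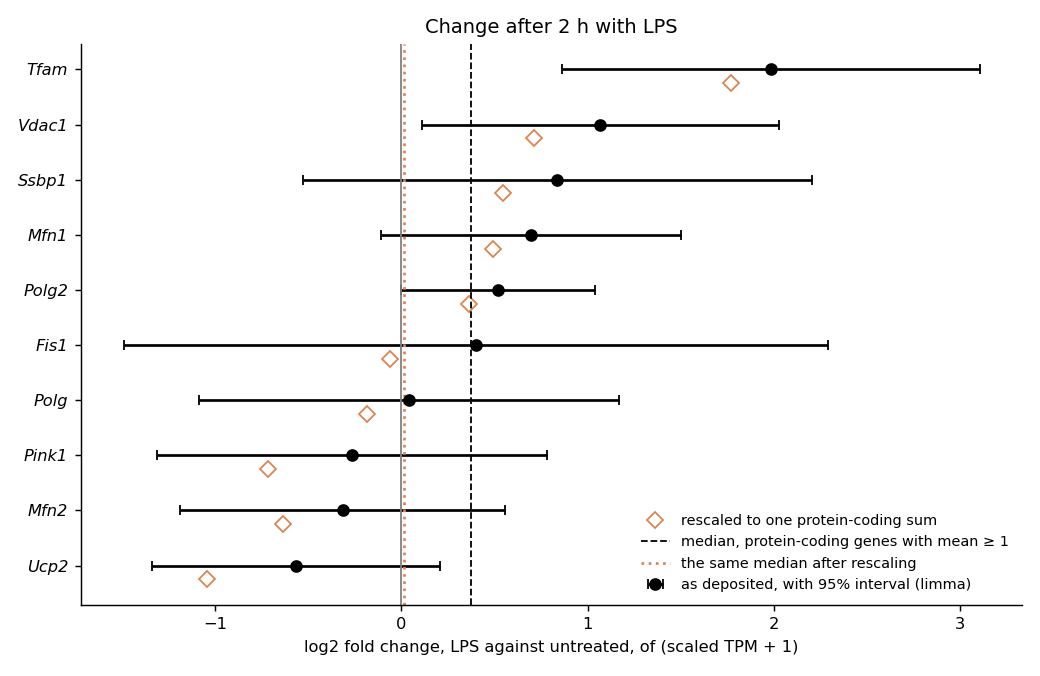
Log2 fold change of each gene (x axis, LPS against untreated, n = 3 per group, on the log2(scaled TPM + 1) scale); black points with bars are limma estimates with 95% intervals, and orange diamonds are estimates after rescaling each sample to one protein-coding sum. The intervals of Tfam (0.86 to 3.10) and Vdac1 (0.11 to 2.03) lie above 0, and the others include it.

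The mitofusins, which tether and merge outer membranes, had log2 fold changes of opposite sign, though neither passed the test. Mfn1 (ENSMUSG00000027668, chr3:32583599-32645888, plus strand) was at 0.183, 0.714 and 0.739 in untreated samples and at 1.80, 1.02 and 1.65 in LPS samples. All LPS values were above all untreated values, LPS sample 2 again being the lowest of its group. The log2 fold change was 0.70 (SE 0.33, interval -0.11 to 1.504; limma adjusted p = 0.348). Mfn2 (ENSMUSG00000029020, chr4:147955508-147989585, minus strand) was at 2.90, 1.03 and 2.08 in untreated samples and at 1.16, 1.24 and 1.61 in LPS samples. The groups overlapped, and the log2 fold change was -0.32 (SE 0.36; limma adjusted p = 0.641). Without untreated sample 1 it was -0.10, and without untreated sample 2 it was -0.57 (limma adjusted p = 0.389) with every LPS value below the untreated values left.

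The ratio of Mfn1 to Mfn2 within a sample was 0.0633, 0.696 and 0.355 without LPS and 1.55, 0.826 and 1.03 with it. The LPS samples all had the higher ratio, with an exact two-sided permutation p of 0.1 (0.15 adjusted over the 3 ratios), again the smallest that the design allows. Untreated sample 1, with the lowest Mfn1 and the highest Mfn2, carried most of the spread.

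Fis1 (ENSMUSG00000019054, chr5:136982101-136995089, plus strand), the outer membrane adaptor of fission, showed no separation. It was at 29.9, 2.87 and 6.05 in untreated samples and at 10.8, 14.4 and 9.68 in LPS samples. Untreated sample 1 was the highest of all 6 and the other untreated samples were the lowest. The log2 fold change was 0.40 (SE 0.78; limma adjusted p = 0.791), whereas the means ran the other way, 12.95 ± 14.8 untreated and 11.6 ± 2.44 with LPS (SD, n = 3). Without untreated sample 1 the log2 fold change was 1.26, and without untreated sample 2 it was -0.24.

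Pink1 (ENSMUSG00000028756, chr4:138039346-138053618, minus strand) was at 5.70, 13.2 and 9.89 in untreated samples and at 5.199, 11.1 and 6.95 in LPS samples. The samples took the same order in both groups, sample 1 lowest and sample 2 highest, and the groups overlapped. The log2 fold change was -0.27 (SE 0.43, interval -1.31 to 0.78; limma adjusted p = 0.749). It was -0.56 without untreated sample 1 and -0.53 without LPS sample 2, and -0.02 without untreated sample 2 and -0.04 without LPS sample 1, with overlapping groups in all 4 fits. Over the 6 samples Pink1 ran against Ssbp1, with a Pearson r of -0.92 on the log scale. This is a description over 6 samples, both genes being read from the same libraries, and samples numbered 2 had the lowest B cell marker sums in both groups.

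Vdac1 (ENSMUSG00000020402, chr11:52251198-52280348, plus strand), the pore through which metabolites pass, was at 3.17, 2.39 and 0.928 in untreated samples and at 6.33, 4.29 and 5.47 in LPS samples. All LPS values exceeded all untreated values, with means of 5.36 ± 1.02 and 2.16 ± 1.14 (SD, n = 3), a ratio of 2.48. Limma gave a log2 fold change of 1.07 (SE 0.39, interval 0.11 to 2.03), with a p of 0.0343 and an adjusted p of 0.242. Over other settings the adjusted p lay between 0.144 and 0.555.

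Ucp2 (ENSMUSG00000033685, chr7:100142055-100151227, plus strand), a carrier linked to lower production of reactive oxygen species, was the one gene of the set with every LPS value below every untreated value. It was at 17.0, 19.5 and 29.1 in untreated samples and at 12.4, 15.8 and 14.2 in LPS samples. The means were 21.9 ± 6.40 and 14.1 ± 1.66 (SD, n = 3), 1.55-fold lower after LPS. The log2 fold change was -0.57 (SE 0.32, interval -1.34 to 0.21; limma adjusted p = 0.424), and without untreated sample 3 it was -0.35. Vdac1 and Ucp2 were near mirror images over the 6 samples (Pearson r = -0.992 on the log scale, a description over 6 samples that include both groups).

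The protein-coding share of the values was larger in the LPS samples, which bears on all of these differences. After each sample was rescaled to one protein-coding sum, the median log2 fold change of the 5894 protein-coding genes moved from 0.37 to 0.01. Tfam then stood at 0.307, 0.368 and 0.482 in untreated samples and at 6.56, 1.26 and 5.11 in LPS samples, and Polg2 at 0.364, 0.348 and 0.277 against 0.689, 0.640 and 0.801. Both remained fully separated, and Ucp2 also did, at 21.97, 20.1 and 39.5 against 11.9, 11.1 and 13.5. Ucp2 then had a log2 fold change of -1.042, with a limma p of 0.0258 and an adjusted p of 0.224. Mfn1 (0.237, 0.739 and 1.00 against 1.72, 0.720 and 1.57) and Vdac1 (4.09, 2.47 and 1.26 against 6.04, 3.02 and 5.19) overlapped through LPS sample 2. Pink1 and Mfn2 overlapped, with log2 fold changes of -0.72 and -0.64 (limma adjusted p = 0.395 and 0.526). Polg and Fis1 changed sign, to -0.18 and -0.06.

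**Figure D3:**
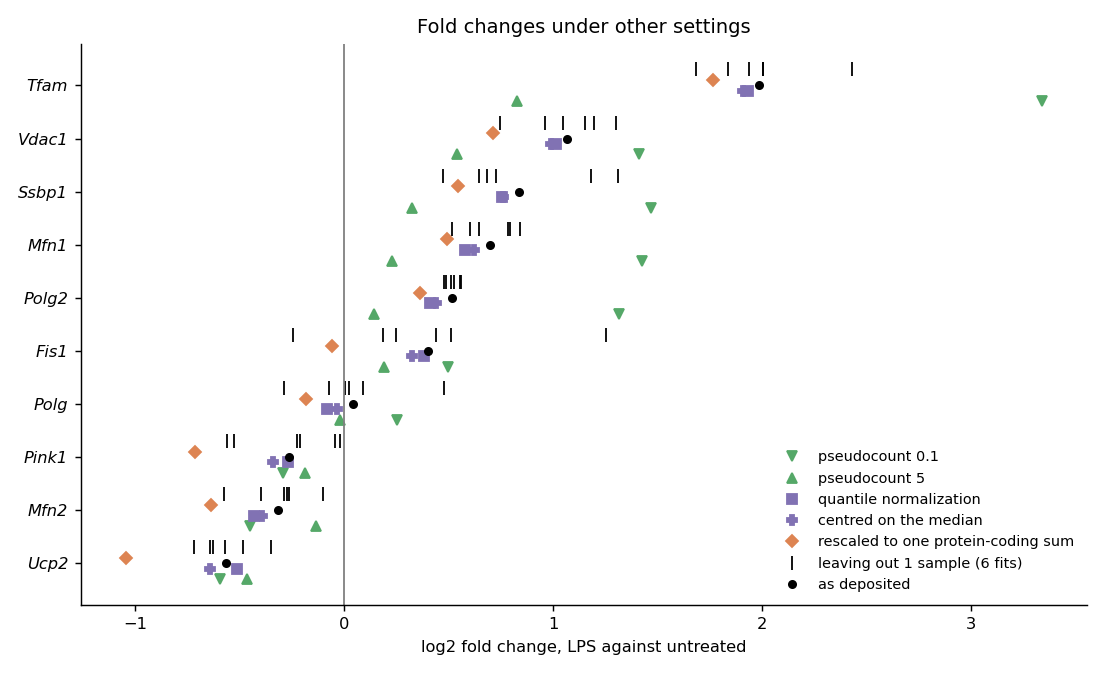
Log2 fold change of each gene (x axis, LPS against untreated) as deposited and under other pseudocounts, other scalings and fits that leave out 1 sample. Tfam, Vdac1, Ssbp1, Mfn1 and Polg2 stay above 0 and Pink1, Mfn2 and Ucp2 below 0 at every mark drawn, while Fis1 and Polg fall on both sides.

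The spread within groups was mostly smaller with LPS. The coefficient of variation over 3 samples had a median of 49.8% over the 10 genes without LPS and of 20.0% with it, compared with 69.6% and 26.6% over the protein-coding genes. Fis1 went from 114% to 21.0%, Polg from 100.2% to 11.3% and Ssbp1 from 109% to 48.2%. Tfam was the one gene of the 10 with a larger value under LPS, 21.4% without and 55.7% with it, the LPS samples spreading 3.83-fold.

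The 5 protein-coding genes whose log values followed Tfam most closely over the 6 samples, out of 5893 searched, were Rpf2, Naf1, Mrpl15, Champ1 and Pfdn4, with Pearson r from 0.9966 to 0.998. Rpf2, a factor of large ribosomal subunit assembly, was at 0.204, 0.190 and 0.130 in untreated samples and at 9.45, 1.83 and 7.66 in LPS samples. Mrpl15, a protein of the mitochondrial ribosome, was at 1.15, 1.25 and 1.05 and at 6.51, 2.63 and 5.78. In each of the 5, as in Tfam, all LPS samples lay above the untreated samples and LPS sample 2 was the lowest LPS sample. The limma adjusted p-values of the 5 lay between 0.0816 and 0.128. Likeness over 6 samples in 2 groups is a description and rests largely on the difference between the groups and on LPS sample 2.

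**Figure D4:**
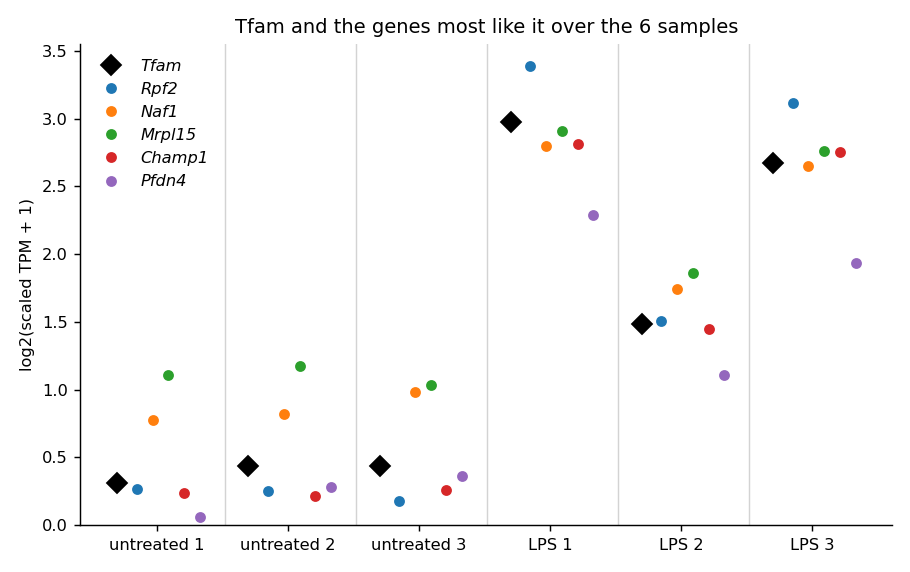
Log2(scaled TPM + 1) (y axis) of Tfam (black diamonds) and of the 5 genes most like it (coloured circles) in each of the 6 samples. LPS sample 2 is the lowest LPS sample for all 6 genes, and every LPS value of a gene lies above its untreated values.

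For the same roles 132 further genes were listed, of which 94 had a row and 92 were tested. Of these, 65 had a positive log2 fold change, with a median of 0.38, close to that of the protein-coding genes. At an adjusted p under 0.05, 2 rose (Mul1 and Tbk1) and 0 fell, which compares with 2.48% and 0.713% of the protein-coding genes. At an unadjusted p under 0.05, 18 of the 92 were higher and 7 lower, shares near the 20.5% and 7.48% of the protein-coding genes.

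Among 13 genes of replication, repair and nucleoids and 11 of mitochondrial transcription none was called, and their medians were 0.21 and 0.22. Rnaseh1, which removes RNA primers, had a log2 fold change of 1.26 (limma adjusted p = 0.141), and Atad3a, a nucleoid-associated membrane protein, 1.34 (limma adjusted p = 0.251). For the transcription factor relatives the values were 1.06 for Mterf2 and -0.96 for Mterf3 (limma adjusted p = 0.123 and 0.242). The 10 nucleotide supply genes had the lowest median of the roles, -0.05. Within them Samhd1, which degrades deoxynucleotides, was at 63.0, 105 and 59.1 in untreated samples and at 16.3, 23.5 and 19.3 in LPS samples. Every LPS value was below every untreated value, with a log2 fold change of -1.86 (SE 0.34; limma adjusted p = 0.0579).

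Of the genes of mitochondrial shape, 9 of 12 fusion and inner membrane genes and 9 of 10 fission genes had positive log2 fold changes, with medians of 0.28 and 0.44. Mul1, an outer membrane ubiquitin and SUMO ligase that acts on fission and on Mfn2, was at 0.330, 0.592 and 0.504 in untreated samples and at 4.03, 5.83 and 5.44 in LPS samples. The groups stood far apart, and Mul1 rose by 2.04 on the log2 scale (SE 0.30; limma adjusted p = 0.0372), a ratio of means of 10.7. Mtfr2, a fission regulator, had 1.41 (limma adjusted p = 0.0795). Phb, the prohibitin of the inner membrane, was at 41.5, 33.1 and 27.7 and at 15.9, 13.9 and 17.5, lower in every LPS sample, with a log2 fold change of -1.05 (limma adjusted p = 0.134). The protease Oma1 had 0.92 (limma adjusted p = 0.216).

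Of 26 genes of mitophagy and movement, 17 had positive values (median 0.67). Tbk1, the kinase that phosphorylates mitophagy receptors and also acts in interferon induction, rose by 2.75 (limma adjusted p = 0.0212). Nbr1, an autophagy receptor, was at 0.595, 1.01 and 0.579 and at 3.35, 4.82 and 3.23, with a log2 fold change of 1.47 (limma adjusted p = 0.078). All 10 tested channel and carrier genes had positive values, with the highest median of the roles, 1.19, although none was called by either rule. For Ucp3 the sign rests on LPS sample 3 alone (0.0310, with 0 in every other sample). Medians and signs of the roles were not computed after rescaling to one protein-coding sum. Mcu, the pore of the calcium uniporter, was at 0.237, 0.250 and 0.377 in untreated samples and at 2.48, 3.10 and 2.17 in LPS samples. The groups were separate, with a log2 fold change of 1.47 and a limma adjusted p of 0.0684.

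**Figure D5:**
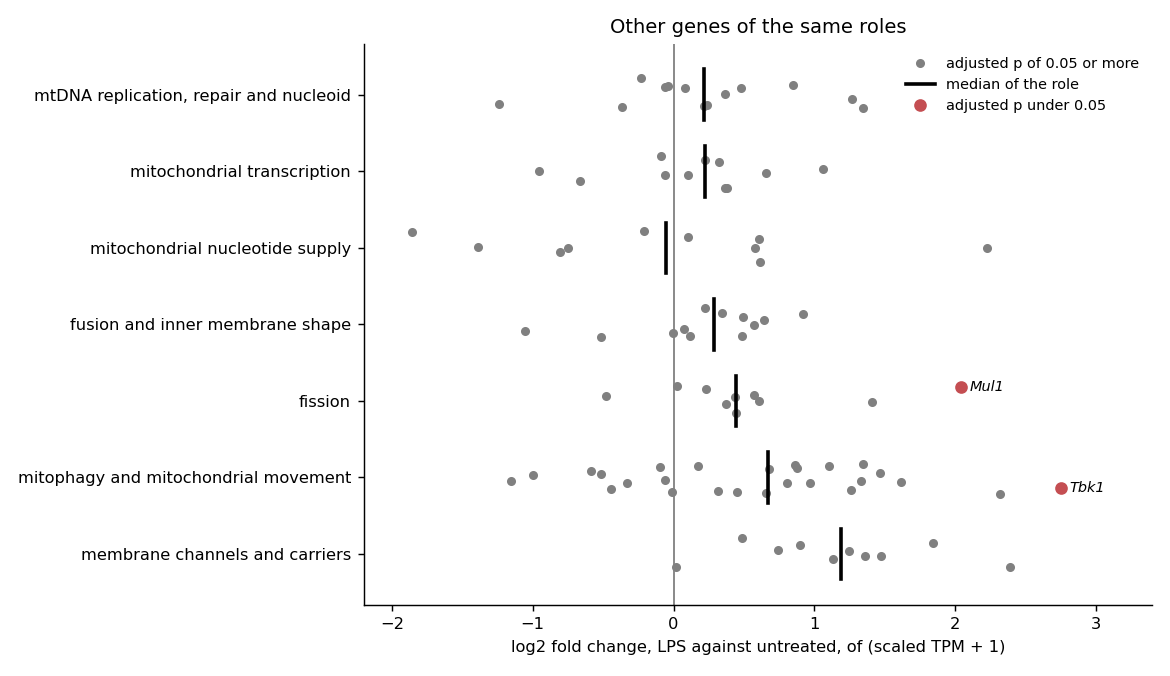
Log2 fold change (x axis, LPS against untreated) of 92 further genes grouped by role; each point is 1 gene, the vertical bar is the median of the role, and red points had an adjusted p under 0.05. Mul1 and Tbk1 are the red points, and the medians run from -0.05 for nucleotide supply to 1.19 for channels and carriers.

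Sequence shared with other genes limits some of these values. No stretch of at least 150 bases with 95% identity to another gene was found for Tfam. Polg2 had such stretches in 33 genes elsewhere (longest 198 bases), Mfn1 in 30 (181 bases), Ssbp1 in 8 (767 bases) and Vdac1 in 1 (171 bases). The 767 bases of Ssbp1 were shared with E130102H24Rik. That gene was at 2.70, 0 and 0.497 in untreated samples and at 2.69, 5.19 and 6.03 in LPS samples. Whether reads of the 2 genes were mixed was not tested. Polg2 also overlaps Milr1, and Polg overlaps Fanci, over 221 and 642 bases. Fanci was at 7.28, 8.11 and 4.98 in untreated samples and at 1.05, 0.879 and 0.927 in LPS samples, lower in every LPS sample. Milr1 was at 0.158, 1.62 and 0.724 in untreated samples and at 5.01, 15.3 and 6.73 in LPS samples, in the same direction as Polg2. The libraries were stranded, but whether the counting used strand is not given in the sources used here, so values of overlapping genes are uncertain to that extent. Mfn1 overlaps Gnb4 over 4740 bases, Pink1 overlaps Ddost over 1514 and Mfn2 overlaps Fv1 over 1245. Gnb4 had 0.0359, 0.00897 and 0.0337 without LPS and 0.266, 0.0859 and 0.272 with it, in the same direction as Mfn1.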

How the data were processed

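RNA of 3 untreated and 3 LPS samples was sequenced from stranded mRNA libraries. Per the labels and the methods, the authors used fastp, STAR and kallisto with GRCm39 (mm10 is also named). The deposited table is called normalized counts, but its values behave as TPM, each the mean over a gene's annotated transcripts, divided by a sample-wide factor; in one part of the rows they are rounded to 7 digits. Because these are not counts, the limma-voom fit of the study was replaced by limma (3.58.1, R 4.3.3) with a trend on log2(scaled TPM + 1). It took all 6 samples and all 23049 genes with a value above 0 in any sample, two-sided, Benjamini-Hochberg adjusted, and was tested on simulated data. Genes were called at an adjusted p under 0.05, or at p under 0.01 with a log2 fold change beyond 2. No replicate numbers were used as a block.

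All 10 genes were named in full. Per role list every called gene was named, and in any case the 2 genes with the smallest p, then the 5 genes most like the member with the smallest p. Some genes that this rule names are not reported here. Genes and lists were chosen with earlier results of these data known, as were the motifs. Alternatives were other pseudocounts, filters, scalings and variance models, a replicate block, and leaving out each sample. Gene positions are those of GENCODE on GRCm39 (35599 rows were matched by name, 983 by identifier and 3 by an older symbol, and 2154 were not matched), and near-identical stretches were searched with blastn 2.17.0. Listed genes without a row, such as Opa1, Dnm1l and Twnk, were not analysed here, nor were genes of the mitochondrial genome. Placed rows lay on chromosomes 1 to 13 and, for 3 rows, on X, so whole chromosomes had no placed row.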

Additional observations from a re-analysis of the deposited data

How the results depend on the processing

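The count of 0 genes called held under most settings. Shares of all genes called or separate were computed for the fit described above alone. The counts under other settings thus have no background of their own. By adjusted p, 1 gene was called higher where genes with a mean under 1 were left out (Tfam) and 1 where the variance did not follow the level (Polg2). By the limits on p and fold, 1 gene (Tfam) was called higher with a pseudocount of 0.1, and between 0 and 1 when single samples were left out. Genes with LPS values all above the untreated values numbered 2 after rescaling to one protein-coding sum, 1 when that was combined with protein-coding genes of a mean of at least 1 (Polg2 was then not tested), and between 4 and 6 when single samples were left out; those all below numbered between 1 and 2. With that combination, chosen after seeing the data, 4 log2 fold changes were positive and their median was -0.0597. Polg reversed with a pseudocount of 5 (-0.0185), quantile normalization (-0.0814), centring on the median (-0.0365), both rescalings (-0.18), and over single samples left out (-0.29 to 0.48). Fis1 reversed with both rescalings (-0.0597) and over single samples left out (-0.24 to 1.26). After rescaling alone, 5 log2 fold changes were positive with a median of 0.15. The cause was not tested. With the replicate number as a block, 0 of the 10 genes were called, and Tfam had a limma adjusted p of 0.201. Mul1 (0.126) and Tbk1 (0.0925) were then no longer called. The deviations of same-numbered samples correlated at 0.102, 0.22 and 0.093, not all above 0.1, so the numbers were not taken as a pairing. Every sample correlated best with its own number, a hint from the data and not from the design, and whether the numbers mark shared cells is not stated. Read depth is unknown, so the precision of low values such as those of Polg2 cannot be given beyond the spread of 3 samples.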
